A study of Mus musculus with 47 samples.

Results

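Genes that mark oligodendrocyte precursor cells and their first steps of differentiation were followed in mouse cortex during microglial depletion. The members, *Pdgfra*, *Cspg4*, *C1ql1*, *Neu4*, *Gpr17*, *Bmp4*, *Enpp6*, *Sox10*, *Olig1* and *Olig2*, were chosen by name and matched to Ensembl identifiers through GENCODE M21. They are 10 of the 54281 genes of the TPM table (a level corrected for transcript length and library total). All 10 were also in the count table, and all 10 passed the filter of a mean of at least 1 TPM.

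Oligodendrocyte precursor cells are the dividing glial cells that generate myelinating oligodendrocytes in the adult brain. They depend on platelet-derived growth factor, which acts through the receptor PDGFRA, and as they leave the cell cycle they pass through a short premyelinating stage before myelin genes are switched on. The growth factor receptor and CSF1R, which microglia need to survive, both belong to the class III receptor tyrosine kinases, so a CSF1R inhibitor raises the question of an off-target loss of precursors.

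Bulk RNA sequencing of the cortex covered 47 male C57BL/6J mice, with 1 library per mouse. Of these, 23 ate control chow and 24 ate chow with the CSF1R inhibitor PLX5622 at 1200 ppm, in both cases for 10 days. Brains were taken every 4 h from ZT2 to ZT22 (Zeitgeber time, hours after lights on in a 12:12 h cycle), with 4 mice per diet and time and 3 in the control group at ZT14. The mice were 2 months old on arrival and about 3 months old at harvest, and the labels name no transgene. Between 16597987 and 27626161 reads were counted per library, and the median was 18314954 for control and 21476967.5 for PLX5622 libraries. Because depth differed between the diets, counts are given below as CPM (counts scaled by the total of the library).

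The diet labels fitted the drug target. *Csf1r* averaged 51.6 ± 13.6 TPM (SD, n = 23) in control mice and 4.19 ± 2.77 TPM (SD, n = 24) in PLX5622 mice, and all 24 PLX5622 libraries were below every control library. The lineage label was also met by the tissue, since *Mbp*, which encodes a major protein of myelin, averaged 3964 ± 788 TPM in control mice. In length-corrected TPM averaged over all libraries, the transcription factors led the members, with 105.3 TPM for *Olig1*, 27.2 TPM for *Sox10* and 18.6 TPM for *Olig2*. *Pdgfra* (11.5 TPM), *Gpr17* (11.1 TPM) and *C1ql1* (10.6 TPM) came next and did not differ from each other beyond their spread. *Neu4* (3.55 TPM), *Enpp6* (3.40 TPM), *Cspg4* (3.27 TPM) and *Bmp4* (2.54 TPM) formed the lowest tier, also with overlapping spreads.

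The first comparison asked whether the genes of the precursors themselves were lower after 10 days of PLX5622. Limma, the test of the TPM values, called none of the 4 precursor genes lower, and neither did edgeR or DESeq2 on counts. *Pdgfra* (ENSMUSG00000029231, GRCm38 chromosome 5, 75152292 to 75198215) encodes the receptor through which platelet-derived growth factor drives precursor division and survival. Its lowest, median and highest levels were 7.88, 10.6 and 13.99 TPM in the 23 control mice. In the 24 PLX5622 mice they were 8.51, 11.7 and 17.4 TPM. The ranges overlapped widely, with 5 PLX5622 mice above every control mouse and 0 below. In CPM, 1 PLX5622 mouse was above every control mouse and 0 were below. The PLX5622 mean was 111.4% of the control mean in TPM and 104.6% in CPM. The difference of PLX5622 minus control in log2(TPM + 1) was 0.14 (standard error 0.069, 95% interval -0.0014 to 0.28, adjusted p = 0.314 in limma), which did not pass the threshold of 0.05. On counts, the log2 fold change in DESeq2 was 0.05, with an interval from -0.04 to 0.14.

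*Cspg4* (ENSMUSG00000032911, chromosome 9, 56865033 to 56899870) encodes the NG2 proteoglycan, a surface protein that precursors share with pericytes. Its level was between 2.25 and 4.62 TPM in control mice (median 3.28 TPM, n = 23) and between 2.05 and 4.55 TPM in PLX5622 mice (median 3.28 TPM, n = 24). The distributions coincided, with 22 of the 24 PLX5622 mice inside the control range and 2 below it. The log2 difference was 0.01 (95% interval -0.12 to 0.14) in TPM and turned to -0.01 with median-of-ratios or upper-quartile scaling, so it had no stable direction. *C1ql1* (ENSMUSG00000045532, chromosome 11, 102939264 to 102946688) encodes a secreted C1q-like protein and is used as a precursor marker in cortex. It spanned 7.66 to 13.0 TPM (median 10.9 TPM) in control mice and 7.02 to 13.4 TPM (median 10.6 TPM) in PLX5622 mice, a near-complete overlap. *Neu4* (ENSMUSG00000034000, chromosome 1, 94020451 to 94028334), a sialidase gene active in precursors and newly committed cells, spanned 2.25 to 5.10 TPM (median 3.38 TPM) and 2.77 to 4.82 TPM (median 3.59 TPM). All 24 PLX5622 mice lay inside the control range of *Neu4*, and its difference of 0.01 (95% interval -0.11 to 0.14) changed sign under both scalings and on counts.

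Across these 4 genes the lowest end of any limma interval was -0.16, for *C1ql1*, and the lowest end on counts in DESeq2 was also -0.16, for the same gene. On these scales a larger fall of any of the 4 precursor transcripts, averaged over the day in whole cortex, lay outside its 95% interval. Relative to the mean of the myelin genes, the *C1ql1* difference was -0.14, so the bound does not carry over to that scale. In bulk tissue, fewer cells of a type and less RNA per cell cannot be told apart.

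The next 3 members belong to cells that have left the precursor state. *Gpr17* (ENSMUSG00000052229, chromosome 18, 31942997 to 31949636) encodes a receptor that is high in committed precursors and must be turned down for myelination to proceed. It ran from 7.47 to 14.1 TPM (median 10.3 TPM) in control mice and from 7.50 to 16.5 TPM (median 12.1 TPM) in PLX5622 mice, with 3 PLX5622 mice above every control mouse. The log2 difference was 0.11 (standard error 0.064, 95% interval -0.01 to 0.24, adjusted p = 0.371). *Gpr17* shares part of its locus with *Lims2* on the opposite strand, which averaged 15.6 TPM, and whether the counting was strand-specific is not given in the sources used here.

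*Bmp4* (ENSMUSG00000021835, chromosome 14, 46383520 to 46390669) encodes a secreted growth factor that is transiently made by committed precursors. Control mice held 0.893 to 3.33 TPM (median 2.31 TPM) and PLX5622 mice 1.34 to 7.32 TPM (median 2.38 TPM). The medians were close, and 4 PLX5622 mice were above every control mouse, at 3.75 and 4.52 TPM at ZT14, 7.32 TPM at ZT18 and 5.12 TPM at ZT22. The highest, mouse 4 at ZT18, had 4.04 CPM, inside the control range of 1.51 to 4.82 CPM, and in CPM 1 PLX5622 mouse was above every control mouse. The PLX5622 mean was 121.4% of the control mean in TPM and 104.1% in CPM. The log2 difference was 0.15 (95% interval -0.04 to 0.35) with all libraries and 0.11 without that mouse. *Bmp4* was also the member with the fewest reads, from 31 to 120 counts per library.

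*Enpp6* (ENSMUSG00000038173, chromosome 8, 46986887 to 47096762) encodes a choline phosphodiesterase and marks oligodendrocytes that are just forming. Its level ran from 1.75 to 4.52 TPM (median 3.15 TPM) in control mice and from 1.82 to 4.49 TPM (median 3.83 TPM) in PLX5622 mice, so that all 24 PLX5622 mice lay inside the control range. On the count table the same gene ran from 4.04 to 11.4 CPM (median 8.19 CPM) in control mice and from 7.67 to 13.9 CPM (median 10.02 CPM) in PLX5622 mice. There, 20 of the 24 PLX5622 mice exceeded the control median and 4 exceeded every control mouse. The mean in PLX5622 mice was thus 112.0% of control in TPM and 130.5% in CPM. In limma on TPM the difference was 0.14 (standard error 0.079, 95% interval -0.02 to 0.30, adjusted p = 0.382). On counts the log2 fold change was 0.37 in edgeR (adjusted p = 5.22e-04) and 0.37 in DESeq2 (95% interval 0.22 to 0.53, adjusted p = 9.955e-05). *Enpp6* therefore rose in the test of the counts and did not pass in the test of the TPM values, and the cause of the gap between the tables was not tested.

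By time of day, *Enpp6* means in CPM were higher in PLX5622 mice at 5 of the 6 Zeitgeber times. At ZT6 the 4 control mice had 6.90, 9.26, 8.82 and 8.38 CPM and the 4 PLX5622 mice had 10.4, 13.1, 12.7 and 11.3 CPM. At ZT14 the 3 control mice had 5.96, 5.85 and 4.04 CPM and the 4 PLX5622 mice had 7.71, 8.20, 8.03 and 10.7 CPM. Every PLX5622 mouse was thus above every control mouse at ZT6 and ZT14, as were 3.68% and 2.57% of all genes at those times. At ZT10 the order was the other way, with means of 9.75 ± 1.24 CPM in control mice and 9.49 ± 1.64 CPM in PLX5622 mice (SD, n = 4 each), and the groups overlapped. In TPM the *Enpp6* groups overlapped at all 6 times, and the time with the lower PLX5622 mean was ZT18, at 91.5% of control.

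The last 3 members are transcription factors that define the lineage from precursor to myelinating cell. *Sox10* (ENSMUSG00000033006, chromosome 15, 79154908 to 79165240) activates myelin genes and is expressed at all stages. It ran from 20.6 to 37.2 TPM (median 27.9 TPM) in control mice and from 19.8 to 33.9 TPM (median 25.9 TPM) in PLX5622 mice. The groups overlapped, with 7 of the 24 PLX5622 mice above the control median and 1 below every control mouse. The log2 difference was -0.07 (95% interval -0.19 to 0.05) in limma. In DESeq2 it was -0.10 (95% interval -0.19 to -0.01, adjusted p = 0.239), which did not pass. Relative to the mean of the myelin genes, the *Sox10* difference in limma was -0.17 and passed (adjusted p = 0.0271). The 15 myelin genes themselves had a median log2 difference of 0.15 in limma on TPM. Of the 599 genes called relative to their mean, 590 were lower, so the pass is not a fall of *Sox10* alone.

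*Olig1* (ENSMUSG00000046160, chromosome 16, 91269772 to 91271933), needed for precursors to mature, showed the most downward shift of the members. It ran from 87.95 to 152.4 TPM (median 107.7 TPM) in control mice and from 78.8 to 123.9 TPM (median 101.8 TPM) in PLX5622 mice. The ranges overlapped, but 18 of the 24 PLX5622 mice were not above the control median and 6 were below every control mouse. In CPM, 4 PLX5622 mice were above the control median and 2 were below every control mouse. Mean levels were 110.7 ± 15.4 TPM (SD, n = 23) and 100.05 ± 12.04 TPM (SD, n = 24), so PLX5622 mice were at 90.4% of control in TPM, and at 89.0% in CPM. In limma the difference was -0.14 (standard error 0.054, 95% interval -0.25 to -0.03, adjusted p = 0.163). On counts *Olig1* fell, with a log2 fold change of -0.18 in edgeR (adjusted p = 0.0193) and -0.18 in DESeq2 (95% interval -0.28 to -0.08, adjusted p = 0.0129). With median-of-ratios scaling of the TPM values the difference was -0.16 and passed (adjusted p = 0.0487), and with upper-quartile scaling it was -0.17 and did not (adjusted p = 0.054).

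*Olig2* (ENSMUSG00000039830, chromosome 16, 91225457 to 91228677), which specifies the lineage, lies 41094 bases from *Olig1*. It ran from 13.3 to 24.1 TPM (median 18.5 TPM) in control mice and from 13.5 to 25.6 TPM (median 17.9 TPM) in PLX5622 mice, and 23 of the 24 PLX5622 mice were inside the control range. The *Olig2* difference in log2(TPM + 1) was 0.0024 (95% interval -0.12 to 0.13) and became negative under both scalings and on counts, where it was -0.04. Neighbouring genes of one locus thus gave different results on counts, a fall for *Olig1* and no call for *Olig2*, although the difference between these genes was not itself tested.

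**Figure D1:**
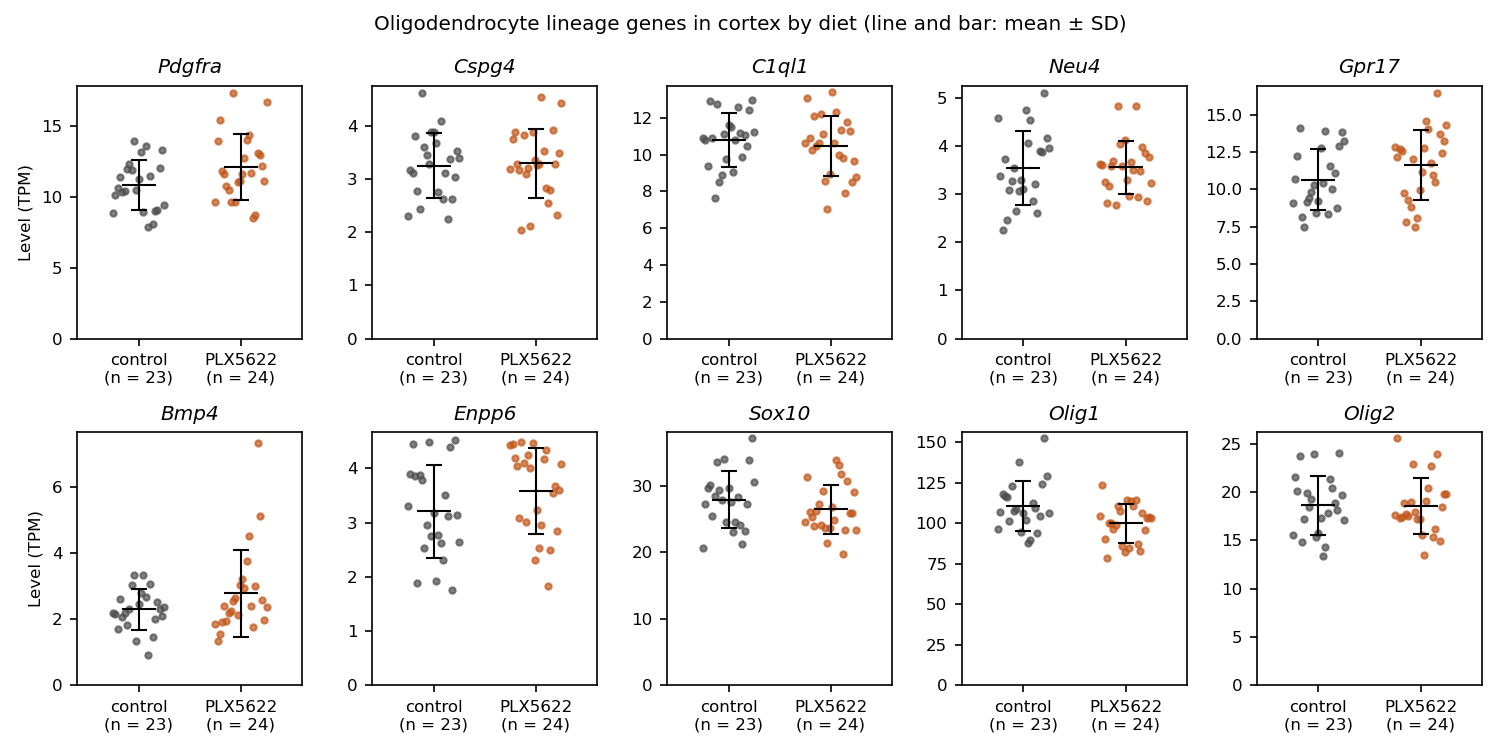
Level of each of the 10 members in TPM (vertical axis, 1 panel per gene, scales differ) in the 23 control and 24 PLX5622 mice, 1 point per mouse spread sideways in order of Zeitgeber time, with the mean and SD of each diet. The diets overlap in every panel, and *Olig1* has 6 PLX5622 mice below every control mouse (2 in CPM, not shown).

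Over the whole list, limma called 0 of the 10 members for diet. Among the 14580 genes tested, 2.58% were called lower and 0.871% higher, 3.45% in either direction. At an unadjusted p under 0.05, limma gave 1 member, *Olig1*, and 16.2% of all genes. On counts, edgeR and DESeq2 each called 2 members, *Enpp6* higher and *Olig1* lower, and each gave 3 at an unadjusted p under 0.05 with *Sox10* as the additional gene, beside 19.3% of the 18274 genes tested in edgeR and 10.5% of the 37182 with a p in DESeq2. The background in edgeR was 4.99% of genes lower and 1.81% higher, and in DESeq2, over the 24192 genes with an adjusted p, 4.17% lower and 1.46% higher. The median log2 difference of the members was 0.01 in limma, beside 0.03 over all genes, and -0.0027 in edgeR, beside 0.01. These counts of 1 member in each direction come from a list of 10 and are too small to be read against the background as a property of the list.

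In edgeR both calls held when any 1 of the 47 libraries was left out, a check chosen after the data were seen and not run in DESeq2. The *Enpp6* fold change then stayed between 0.34 and 0.40 (adjusted p at most 0.00117), and that of *Olig1* between -0.20 and -0.16 (adjusted p at most 0.0428). The share of mitochondrial counts, a sign of RNA quality, had a median of 8.57% for control and 8.54% for PLX5622 libraries, and edgeR made both calls also with that share as a covariate.

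**Figure D2:**
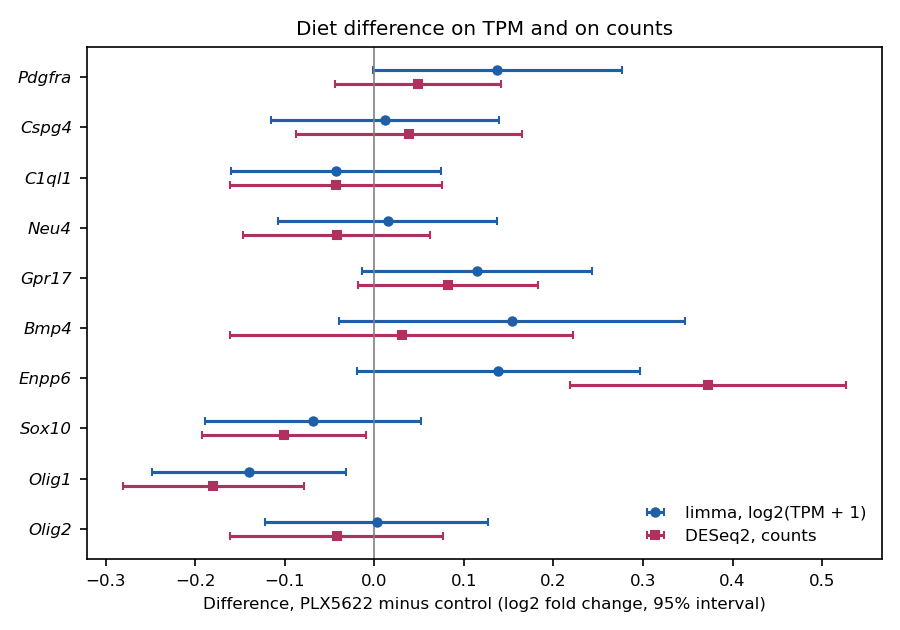
Difference of PLX5622 minus control for each member on a log2 scale, from limma on log2(TPM + 1) and from DESeq2 on counts, with 95% intervals. The *Enpp6* interval lies above 0 on counts (0.22 to 0.53) and spans 0 in TPM (-0.02 to 0.30), the *Olig1* interval lies below 0 in both, and *Cspg4*, *Neu4* and *Olig2*, which change sign under other scalings, stay near 0.

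Levels were next compared between the diets at each Zeitgeber time, where groups hold 3 or 4 mice. Of the 10 members, limma called 0 at ZT2 (1.29% of all genes called), 0 at ZT6 (1.01%), 0 at ZT10 (1.07%), 0 at ZT14 (0.905%), 0 at ZT18 (0.809%) and 0 at ZT22 (1.30%). At an unadjusted p under 0.05 there were 0, 0, 1, 1, 1 and 4 members in the same order, beside 9.57%, 7.24%, 7.53%, 4.31%, 5.48% and 7.76% of all genes. The count table was not tested by time. The smallest adjusted p of any member at any time was 0.344, for *Neu4* at ZT10.

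In TPM, *Neu4* was the member whose diets parted at most times. At ZT10 the 4 control mice had 2.65, 3.06, 3.29 and 3.11 TPM and the 4 PLX5622 mice 4.82, 4.04, 3.59 and 4.12 TPM, so every PLX5622 mouse was higher. At ZT14 the 3 control mice had 4.75, 4.06 and 4.53 TPM and the 4 PLX5622 mice 3.28, 2.95, 3.65 and 3.51 TPM, so every PLX5622 mouse was lower. At ZT22 the 4 control mice had 3.86, 5.10, 4.17 and 3.95 TPM and the 4 PLX5622 mice 3.84, 2.86, 3.76 and 3.22 TPM, again without overlap. In CPM the groups overlapped at ZT10 and were separate at ZT14 and ZT22, with PLX5622 lower. For *Neu4*, the interaction of diet with ZT as a factor gave an unadjusted p of 0.00382 and an adjusted p of 1 in limma. The differences between times thus did not pass over all genes.

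*Olig1* was the other member with separate groups in TPM, at ZT6 and ZT22. At ZT22 the 4 control mice had 124.1, 152.4, 129.2 and 106.5 TPM, and the 4 PLX5622 mice had 95.98, 103.4, 103.7 and 103.5 TPM. At ZT6 the 4 control mice had 116.1, 101.6, 123.3 and 107.7 TPM, and the 4 PLX5622 mice had 100.1, 100.2, 96.4 and 98.9 TPM. The PLX5622 mice were the lower ones both times, by a narrow gap at ZT6, but in CPM the groups overlapped at both times. In TPM, over all genes tested, 5.29% had separate groups at ZT2, 5.49% at ZT6, 3.45% at ZT10, 5.15% at ZT14, 3.06% at ZT18 and 4.84% at ZT22. The members gave 0, 1, 1, 1, 0 and 2 of 10 at those times. In CPM other members were separate as well: *C1ql1* was lower in every PLX5622 mouse at ZT10 (3.04% of all genes), *Gpr17* higher at ZT18 (2.48%), *Pdgfra* higher at ZT22 (1.66%) and *Sox10*, like *Neu4*, lower at ZT22 (3.87%). None of these 4 was separate at the same time in TPM, so the separations depended on the table. The 4 members at an unadjusted p under 0.05 at ZT22 were *Olig1*, *Sox10*, *C1ql1* and *Neu4*, all lower in PLX5622 mice, with log2 differences of -0.32, -0.29, -0.28 and -0.25 and adjusted p from 0.421 to 0.641.

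The second question was whether the members vary over the day. In limma with all libraries, *Gpr17* was called in PLX5622 mice and over both diets, but not in control mice. ZT6 and ZT22 held its lowest and highest means in PLX5622 mice. In control mice its mean was 8.54 ± 0.888 TPM at ZT6 and 12.2 ± 2.33 TPM at ZT22 (SD, n = 4 each), and in PLX5622 mice it was 8.91 ± 0.814 TPM and 13.4 ± 0.773 TPM. At ZT6 the control mice had 8.17, 7.47, 9.15 and 9.39 TPM and the PLX5622 mice 9.72, 7.83, 9.30 and 8.78 TPM. At ZT22 the control mice had 8.72, 12.9, 13.8 and 13.2 TPM and the PLX5622 mice 13.7, 12.5, 13.2 and 14.3 TPM. Within PLX5622 mice the values at ZT6 and ZT22 were fully apart, while in control mice 1 mouse at ZT22 fell inside the range of ZT6. The group means at ZT10 were 9.42 TPM (control) and 9.38 TPM (PLX5622), and those at ZT14 were 12.4 and 13.1 TPM, so that in both diets ZT6 and ZT10 were the times of the lowest means.

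A 24-h harmonic was tested within each diet and over both. In control mice limma called 0 of 10 members (0.604% of all genes), with 1 at an unadjusted p under 0.05 (11.9% of all genes), *Gpr17* (adjusted p = 0.419), and edgeR called 0. In PLX5622 mice limma called 1 of 10, *Gpr17* (1.45% of all genes), with an amplitude of 0.26 in log2(TPM + 1), a fitted peak at ZT 19.9 and an adjusted p of 0.0495. There, 2 of 10 had an unadjusted p under 0.05, *Gpr17* and *Bmp4*, beside 13.2% of all genes. The *Gpr17* call stood just inside the threshold. It was lost in 36 of the 47 fits with 1 library left out, where the adjusted p ran from 0.0235 to 0.1155 (the highest without PLX5622 mouse 2 at ZT10). In limma it was also lost without a filter (adjusted p = 0.0933) and with a pseudocount of 0.1 (0.051). A rank test of the JTK type, which called 16 genes in all, did not make the call either (0.315). The call was stronger with edgeR on counts (0.00153), under both scalings (0.00123 and 0.00145) and with the mitochondrial share (0.00114). The diets were not shown to differ. The interaction of diet with the harmonic called 0 of 10 members in limma (0% of all genes) and 0 in edgeR. In limma, 0 members had an unadjusted p under 0.05 for it, beside 4.59% of all genes (*Gpr17* p = 0.526 over n = 47). With ZT as a factor in limma, *Neu4* had an unadjusted p of 0.00382, which did not pass after adjustment.

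Over both diets together, a test added after the data were seen, the harmonic called 1 of 10 members in limma (5.26% of all genes) and 1 in edgeR (11.3%), in each case *Gpr17*. Its amplitude was 0.21 (standard error 0.045, n = 47) with a peak at ZT 19.9, and the adjusted p was 0.00619 in limma and 2.205e-05 in edgeR. This call was made in all 47 fits with 1 library left out. *Bmp4* had the next largest amplitude, 0.20 (standard error 0.068), with a peak at ZT 14.8 and an adjusted p of 0.162, which did not pass.

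**Figure D3:**
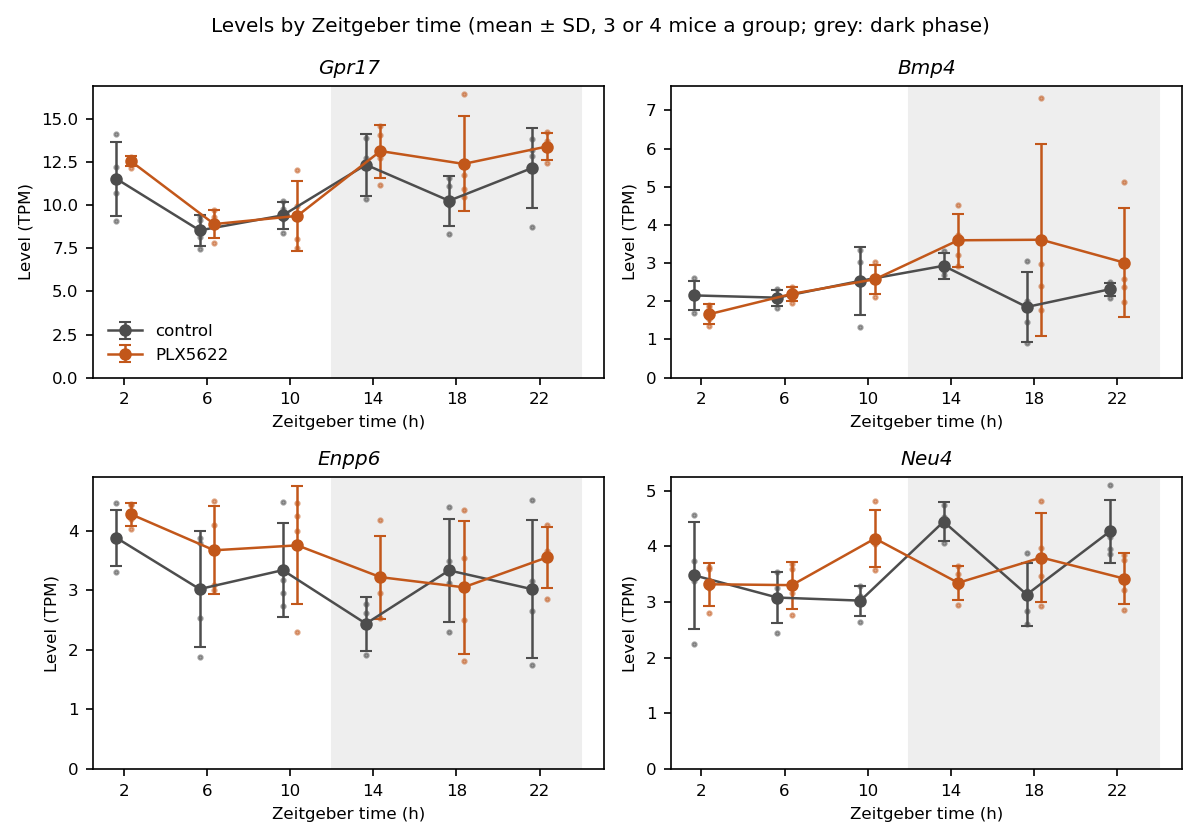
Level in TPM (vertical axis) of *Gpr17*, *Bmp4*, *Enpp6* and *Neu4* by Zeitgeber time (horizontal axis, hours) in control and PLX5622 mice, 1 point per mouse, with group means and SD (n = 4, and 3 for control at ZT14). *Gpr17* is lowest at ZT6 in both diets (8.54 and 8.91 TPM), and the *Bmp4* mean at ZT18 in PLX5622 mice includes 1 mouse at 7.32 TPM.

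Among PLX5622 mice, residual microglial RNA varied, which allowed a comparison within the treated group. The summed level of the 10 microglial genes ran from 19.9 to 94.0 TPM in the 24 PLX5622 mice, beside 402.8 to 628.0 TPM in control mice. Limma called 0 of the 10 members for a slope on the mean log2(TPM + 1) of the same genes (0.165% of all genes), 0 had an unadjusted p under 0.05 (2.6% of all genes), and no other tool was run. With *Csf1r* alone as the microglial level limma also called 0 (0.0892% of all genes), and 1 member, *Bmp4*, had an unadjusted p under 0.05 (2.5% of all genes). The slopes, in log2 units of the gene per log2 unit of that mean, ran from -0.11 (standard error 0.085) for *Enpp6* to 0.21 (standard error 0.11) for *Bmp4*.

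Neighbouring genes of the lineage were described from lists set by function. Of 12 other precursor genes, which encode matrix proteins, adhesion proteins and early regulators, limma called 0 (2 at an unadjusted p under 0.05), edgeR and DESeq2 called 0, and the median log2 difference was 0.06. The most abundant, *Cspg5*, a proteoglycan gene also active in neurons, averaged 242.4 ± 24.4 TPM in control and 246.8 ± 17.5 TPM in PLX5622 mice. Of 9 tested genes of committed and newly formed oligodendrocytes (*Casr* was filtered out), limma called 0 (0 unadjusted), the count tools called 0, and the median was -0.04. *Bcas1*, a marker of cells starting to myelinate, averaged 172.1 ± 37.7 and 152.0 ± 30.0 TPM. Of 10 further regulators of the lineage, limma called 0 (2 unadjusted) and the count tools 0. Their median was 0.06, and *Id2*, an inhibitor of differentiation, was the most abundant.

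Growth factor systems that act on precursors were described next. Of 5 genes of the PDGF system beside *Pdgfra*, limma called 0 (1 unadjusted), with a median of 0.02, and *Pdgfa*, the main ligand for precursors, averaged 31.1 ± 2.77 and 31.6 ± 2.87 TPM. On counts *Pdgfb*, a ligand made largely by endothelial cells, fell by 0.15 on the log2 scale in edgeR (adjusted p = 0.0378, and 0.0365 in DESeq2), with 5 of 24 PLX5622 mice below every control mouse in TPM. Of 18 tested genes of BMP signalling (*Bambi* was filtered out), limma called 0 (2 unadjusted), with a median of 0.04. On counts *Acvr2a*, a receptor gene, was higher by 0.19 in edgeR (adjusted p = 0.0432, and 0.0427 in DESeq2). *Id3*, a target of the pathway, was the most abundant at 55.3 ± 6.77 and 60.1 ± 7.71 TPM. Of the 5 class III receptor kinases, *Csf1r* fell by 3.54 on the log2 scale (adjusted p = 1.222e-20), and *Pdgfra*, *Pdgfrb*, *Kit* and *Flt3* were called neither by limma nor by the count tools.

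Downstream of the members, 2 of 15 myelin genes rose in limma and 0 fell, with a median of 0.15. These were *Cldn11*, which seals the myelin sheath (112.5 ± 19.9 to 132.9 ± 21.9 TPM, log2 difference 0.24, adjusted p = 0.0376), and *Ugt8a*, which makes the myelin lipid galactosylceramide (18.8 ± 3.29 to 22.3 ± 3.86 TPM, 0.24, adjusted p = 0.0286). For each, 3 PLX5622 mice were above every control mouse. *Mbp*, the most abundant, was not called (-0.11, adjusted p = 0.527). Of 5 tested cell cycle genes limma called 0 (1 unadjusted), with a median of 0.0024, and *Pcna*, a replication factor, was the most abundant. The remaining 6 were below the filter. Among them edgeR called *Mki67*, a marker of dividing cells, higher by 0.47 (adjusted p = 0.0126, and 0.00929 in DESeq2) at 0.118 ± 0.049 TPM in control and 0.213 ± 0.179 TPM in PLX5622 mice, and it called *Ccnd1*, a cyclin gene of the tested group, lower (-0.17, adjusted p = 0.00167, and 7.375e-04 in DESeq2).

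Markers of other cells were measured beside the members because several members are also expressed outside the lineage. All 10 microglial genes fell. The largest log2 differences in limma on log2(TPM + 1), which orders them differently from edgeR on counts, were those of *C1qa* (-3.74), *Csf1r* (-3.54), *Ctss* (-3.50) and *P2ry12* (-3.44). Mural cells, which share *Cspg4*, had 0 of 7 genes called by limma (2 unadjusted) and 0 by the count tools, with a median of 0.04 and *Vtn* as the most abundant. Fibroblasts, which share *Pdgfra*, had 0 of 7 called (1 unadjusted, 0 by the count tools), with a median of 0.09 and *Igf2* as the most abundant. Endothelial genes gave 0 of 6 (0 unadjusted, 0 by the count tools, median 0.06, *Ly6c1* the most abundant). Neuronal genes gave 0 of 6 (0 unadjusted, 0 by the count tools, median 0.06, *Snap25*), and neuroblast genes 0 of 5 (0 unadjusted, 0 by the count tools, median 0.05, *Dlx1*).

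Among astrocyte genes 1 of 6 rose, *Gfap*, an intermediate filament gene (149.3 ± 36.8 to 218.4 ± 45.0 TPM, 0.56, adjusted p = 5.493e-06), 3 had an unadjusted p under 0.05, and the list median was 0.10, with *Slc1a2* the most abundant. Choroid plexus and striatum were measured as signs of how the cortex was dissected. Of 5 choroid plexus genes, limma called 3 higher, *Ttr* (0.80), *Kcne2* (0.46) and *Kl* (0.40), with a list median of 0.46. On counts edgeR and DESeq2 called 0, but the edgeR fold changes were of similar size, 0.62, 0.56 and 0.41 (adjusted p from 0.0626 to 0.086), and 4 of 5 had an unadjusted p under 0.05. Their summed level ran from 66.3 to 1186 TPM in control mice and from 145.4 to 1270 TPM in PLX5622 mice. Striatal genes gave 0 of 6 (0 unadjusted, 0 by the count tools, median 0.18), with *Penk* the most abundant. The part of dissection in the values of the members was not tested.

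Within groups, mice differed in the members in a partly shared way. After the mean of each of the 12 groups was subtracted, Pearson correlations over the 47 libraries between the 45 pairs of members had a median of 0.359 in TPM, from 0.0608 to 0.764, and all 45 were above 0. On normalized counts the median was 0.182, from -0.146 to 0.700, and 31 were above 0. The libraries share their processing and depth differences, so these values describe covariation and are not tests. The pairs most alike were *Olig1* with *Olig2* (0.764), *Sox10* with *Olig2* (0.757) and *Pdgfra* with *Gpr17* (0.740), which were 0.700, 0.653 and 0.592 on counts. *Pdgfra* and *Cspg4*, the classical pair of precursor markers, reached 0.524 in TPM and 0.667 on counts.

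Outside the list, the genes most like the mean of the members over the 47 libraries included *Sdc3* (r = 0.886), *Sema6d* (0.882), *Plekhb2* (0.881) and *Cs* (0.880). For single members the most alike genes were *Ctif* for *Pdgfra* (0.910), *Cers6* for *Cspg4* (0.815), *Vat1* for *C1ql1* (0.712), *Itm2a* for *Neu4* (0.648) and *Lman2* for *Gpr17* (0.877). They were *Carm1* for *Bmp4* (0.702), *Sccpdh* for *Enpp6* (0.723), *Clic4* for *Olig1* (0.870) and *Cnp* for both *Sox10* (0.836) and *Olig2* (0.842). On counts all of these correlations were lower, from 0.594 (*Cs*) to 0.775 (*Sema6d*) for the mean of the members and from 0.438 (*Sccpdh*) to 0.855 (*Clic4*) for single members.

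Promoter sequence from RefSeq (GRCm38.p6) was matched for 6 of the 10 members, *Pdgfra*, *Cspg4*, *Neu4*, *Bmp4*, *Enpp6* and *Olig2*. The 250 bases before the start of *Enpp6* are printed because its counts rose and because *Sox10*, a member, binds SOX-type motifs. The motif was searched on both strands as AACAATG, with A or T allowed at each of its positions 1, 2 and 6. It was present in 21.8% of 32851 promoter windows of the same length, so a match is common. Of the 6 members, *Enpp6* and *Olig2*, which was not called for diet, each had 1 match and the other 4 had 0. CAGCTG and TATAAA, present in 13.0% and 12.4% of the windows, were also searched. *Olig2* had 1 match to TATAAA and 0 to CAGCTG, and *Enpp6* had 0 to both. The windows of *Olig2*, *Cspg4* and *Neu4* overlap an annotated exon of the same gene, and that of *Enpp6* does not. The window is chr8:46986637-46986886 on the plus strand, 5′ to 3′, with the 1 match in capitals.
Enpp6: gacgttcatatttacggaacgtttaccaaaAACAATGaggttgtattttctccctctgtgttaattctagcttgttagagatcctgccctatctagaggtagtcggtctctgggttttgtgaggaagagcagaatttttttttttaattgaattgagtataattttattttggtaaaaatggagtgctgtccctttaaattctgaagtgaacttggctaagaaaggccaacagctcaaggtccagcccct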

How the data were processed

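RNA from the cortex of 47 mice was sequenced, 1 library per mouse, and groups were taken from the sample titles. The authors mapped reads to GRCm38.p6 with STAR 2.7.0f, dropped those outside the primary chromosomes, and obtained the deposited TPM values from Salmon 1.0.0 and a Gencode annotation. A second table, named for FPKM, holds whole-number counts as deposited, which were used as counts. Per the labels, STAR, featureCounts, edgeR and limma were used, without versions, and which of them made the counts is not given in the sources used here. Sequencing metrics and RNA integrity values were not used here. The TPM table lists 54281 genes, the counts cover 54532, and of these 53068 are shared. Of their identifiers, 99.68% and 99.93% were found in GENCODE M21. In all 47 libraries the TPM column was most like its own count column. Among the 69 library pairs within groups, chi-square per degree of freedom was at least 4.55, so no pair agreed within counting error.

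Tests used limma 3.58.1 (R 4.3.3) on log2(TPM + 1), a pseudocount of 1, on the 14580 genes averaging at least 1 TPM. Terms were diet plus a 24-h harmonic of ZT (its sine and cosine). F tests of the harmonic within each diet, the interaction of diet with the harmonic or with ZT as a factor, contrasts per ZT and the slope on the mean log2 level of the microglial list in PLX5622 mice were run on the same values. P-values were two-sided and adjusted over all genes tested by Benjamini-Hochberg, with a threshold of 0.05. Counts were tested with edgeR 4.0.16 (TMM, quasi-likelihood) and DESeq2 1.42.0. The pseudocount shrinks log2 differences of genes near 3 TPM, which the count tests avoid. The tests were tried on simulated data. Other alternatives were filters, pseudocount, scaling, covariates, a replicate block, a JTK-type rank test in place of MetaCycle, which was not installed, and each library left out. The rhythm over both diets, the counts at unadjusted p and the left-out libraries and mitochondrial covariate in edgeR were chosen after seeing the data.

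Genes were named by rule: the members, from each list the up to 4 called genes with the largest fold change and the most abundant gene, the 5 genes most like the mean of the members, the gene most like each member, and *Csf1r*. Genes called on counts but not by limma were named after their values were seen. Single values of some genes under this rule are not reported here. The members and lists were chosen with earlier results of these data known. Python 3.11.15 (pandas 2.3.3, numpy 2.4.6, matplotlib 3.10.9) was used for summaries and plots.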

Additional observations from a re-analysis of the deposited data

Results flagged for a closer look

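*Neu4* stood at 136.9% of the control mean in TPM at ZT10, at 75.3% at ZT14 and at 80.1% at ZT22, with no overlap between the diets at these times and in opposite directions. The interaction of diet with ZT as a factor gave an unadjusted p of 0.00382 and an adjusted p of 1 in limma for *Neu4*. In CPM the groups overlapped at ZT10.

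In 4 of 110 groups of 4 mice, 1 mouse lay far from the others. *Olig1* was 85.0 TPM in PLX5622 mouse 2 at ZT14, where the others had 110.5 to 114.3 TPM. It was 95.98 TPM in PLX5622 mouse 1 at ZT22, where the others lay close together at 103.4 to 103.7 TPM. *Olig2* was 25.6 TPM in PLX5622 mouse 2 at ZT2, with the others at 17.3 to 17.6 TPM. It was 22.98 TPM in PLX5622 mouse 1 at ZT10, with the others at 17.2 to 17.98 TPM. Chance marks about 1 in 20 groups, or 5.5 of 110, so 4 is no more than chance gives.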

How the results depend on the processing

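The edgeR and DESeq2 alternatives change the table, normalization, test and genes tested together. The cause of a change was not tested unless stated. Members called for diet, 0 in limma, numbered 1 with median-of-ratios scaling (*Olig1*), 2 relative to the myelin genes (*Sox10*, *Olig1*), 3 with 3 principal components of the residuals as covariates (*Pdgfra*, *Gpr17*, *Olig1*), and 2 with edgeR, with edgeR without a filter and with DESeq2 (*Enpp6*, *Olig1*). The components come from the residuals of the same fit and lower the residual spread by construction. Genes called for diet, 503, numbered 298 at a mean of at least 5 TPM, 2558 with the components (839 lower), 987 with the mitochondrial share, 1243 with edgeR, 1278 with edgeR without a filter and 1363 with DESeq2. Of the 503, 376 were lower, against 586 without a filter, 208 at 5 TPM, 912, 892 and 1009 with the count tools in that order, and 590 of 599 relative to the myelin genes.

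The differences of *Cspg4*, *Neu4* and *Olig2*, near 0, changed sign: to -0.0077, -0.0039 and -0.0212 with median-of-ratios scaling, -0.0089, -0.005 and -0.0227 with upper-quartile scaling, and -0.0887, -0.0857 and -0.0979 relative to the myelin genes. *Neu4* and *Olig2* were -0.0375 and -0.0403 in edgeR, -0.0321 and -0.0343 without a filter, and -0.0422 and -0.0424 in DESeq2. With 1 library left out, *Cspg4* ran from -0.0068 to 0.0349, *Neu4* from -0.0046 to 0.0344 and *Olig2* from -0.0158 to 0.0237. The other 7 members kept their direction in all 47 such fits. Relative to the myelin genes, the differences of *Pdgfra*, *Gpr17*, *Bmp4* and *Enpp6* were 0.037, 0.0141, 0.0531 and 0.0382, closer to 0 than in TPM.

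With the replicate block, 0 members and 578 genes were called for diet, and rhythmic genes in control mice, 88 without it, numbered 255. The latter numbered 302 and 288 under the scalings, 1373 with the components, 248 with the mitochondrial share, 588 in edgeR and 0 in the JTK-type test. In PLX5622 mice the 212 rhythmic genes became 331, 326, 2136, 361, 451 and 16 in the same order, and 124 to 232 with 1 library left out. Rhythmic members in PLX5622 mice, 1, became 0 without a filter, 0 with a pseudocount of 0.1, 0 in the JTK-type test, 2 with the components and 0 to 2 with 1 library left out. With the components 2 members were called in control mice, among them *Gpr17* (adjusted p = 0.00535), and 2 over both diets. Rhythmic genes over both diets, 767, numbered 1336 and 1347 under the scalings, 4270 with the components and 2066 in edgeR. Genes called for the microglial level, 24, numbered 13 with *Csf1r* alone.

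Over 23 pairs of mice with the same replicate number and time, the correlation of residuals between diets ran from -0.093 to 0.198, with a median of 0.072 and 7 pairs over 0.1, and 11 of the 23 were most alike with their own number. *Bmp4*, at 31 to 120 counts per library, has the least precise values of the members. The data are 1 region after 10 days of diet, harvested once per mouse, in males. They hold no cell counts, so precursor number was not measured.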
